A study of Mus musculus with 20 samples.

Results

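The genes described here are 10 markers of spiral ganglion neuron subtypes, Calb2, Calb1, Pou4f1, Runx1, Lypd1, Ttn, Trim54, Cpne6, Th and Gata3, out of 24411 genes listed in both deposited count tables. They were taken as a named list of type I and type II marker genes, with no threshold on their values, and all 10 were present in every table. The samples were dissections of the mouse cochlear sensory epithelium with its spiral ganglion neurons, each pooled from 4 mice per the labels, at postnatal day 7 (P7, before hearing onset) and day 22 (P22). Controls were heterozygous for Bai1 tm2b (Bai1tm2b/+, labelled Het) and were compared with homozygotes (Bai1tm2b/tm2b, labelled Homo), with 3 libraries of each genotype at P22 and 7 of each at P7. The tm2b allele lacks exons 3 and 4 of Adgrb1, which encodes the adhesion receptor BAI1, and carries a lacZ cassette in every cell of the animal, with no tissue-specific Cre. It removes the long form of the protein only. Mice of both sexes were used on a C57BL/6N background, so that controls and homozygotes alike carried the Cdh23 ahl allele of that strain, which is linked to age-related hearing loss, and controls already carried 1 tm2b copy.

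Spiral ganglion neurons carry sound information from hair cells to the brainstem. Type I neurons, the large majority, each contact a single inner hair cell and fall into the molecular subtypes Ia, Ib and Ic, while the sparse type II neurons contact outer hair cells. Calretinin (Calb2) is listed here as the type Ia marker and calbindin (Calb1) as the type Ib marker. Pou4f1, Runx1 and Lypd1 are listed for type Ic, and Th and Gata3 for type II neurons. Calb2 is not particular to type Ia: the study stained calretinin to label most subtypes, and its discussion ties Calb2 to all type I subtypes. Several of these genes are also active elsewhere in the cochlea: calretinin and calbindin are made by hair cells, and Gata3 is made by hair cells and supporting cells.

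Libraries held 35725985 to 40350413 counts at P22 and 31108551 to 58807173 in the P7 replicates 5 to 7, for which counts were deposited. The P7 replicates 1 to 4 of each genotype were deposited as TPM (transcript abundance scaled for length and library size) rounded to whole numbers, so their depth is unknown. Spiral ganglion neurons were represented in every library: the 15 pan-neuronal markers summed to 10767 to 16381 CPM (counts scaled to library size) at P22. Adgrb1 itself was lower in homozygotes at P22, at 137 to 151 CPM against 90.8 to 95.8 CPM (log2 fold change -0.61, adjusted p = 0.000602, edgeR). In the P7 counts it measured 35.5, 61.5 and 39.4 CPM in controls and 29.6, 23.8 and 34.3 CPM in homozygotes, and in the rounded TPM 7 to 12 against 9 to 12, so that the gene total, which includes exons outside the deletion, did not separate the genotypes of P7 replicates 1 to 4. The P7 counts and the P7 rounded TPM were treated as separate sets and never merged, because rounded TPM are not counts.

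Sequence just before the start of 4 of the markers is printed because Ttn and Trim54 were lower together in P22 homozygotes, and because Th and Lypd1 were among the markers with the largest rise between the ages and held matches to the motifs searched. Each line gives the 250 bases before the RefSeq start on GRCm38.p6, read 5′ to 3′ on the gene's own strand. For Trim54 the RefSeq start lies upstream of the start in the GENCODE annotation used for loci and exon lengths. Capitals mark matches to 5 motifs, searched on both strands: RUNX (TGTGGT), the site of GATA factors (AGATAA), the cyclic AMP response element or CRE (TGACGTCA), the CRE half-site (TGACG, which overlaps the CRE) and the TATA box (TATAAA).
Ttn, chr2:76982548-76982797, minus strand: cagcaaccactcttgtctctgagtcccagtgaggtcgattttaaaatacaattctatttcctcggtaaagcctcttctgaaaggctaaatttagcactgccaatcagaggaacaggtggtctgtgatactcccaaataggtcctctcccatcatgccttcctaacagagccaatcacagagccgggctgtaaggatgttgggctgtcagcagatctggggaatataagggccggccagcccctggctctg
Trim54, chr5:31116362-31116611, plus strand: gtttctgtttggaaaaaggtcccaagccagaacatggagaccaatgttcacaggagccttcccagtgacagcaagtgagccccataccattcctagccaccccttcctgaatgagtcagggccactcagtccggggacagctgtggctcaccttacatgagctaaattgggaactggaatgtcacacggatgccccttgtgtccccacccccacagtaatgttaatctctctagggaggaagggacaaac
Th, chr7:142899996-142900245, minus strand: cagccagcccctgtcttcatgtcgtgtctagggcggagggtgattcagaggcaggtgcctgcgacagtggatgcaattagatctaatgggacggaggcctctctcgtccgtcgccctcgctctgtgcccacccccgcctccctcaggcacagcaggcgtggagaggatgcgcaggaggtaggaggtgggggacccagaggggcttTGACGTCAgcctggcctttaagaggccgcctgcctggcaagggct
Lypd1, chr1:125912215-125912464, minus strand: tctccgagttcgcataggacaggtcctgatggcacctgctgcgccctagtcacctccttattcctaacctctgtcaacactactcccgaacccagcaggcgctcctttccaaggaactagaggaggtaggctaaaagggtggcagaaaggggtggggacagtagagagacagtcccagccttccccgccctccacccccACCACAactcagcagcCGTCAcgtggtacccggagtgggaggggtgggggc
Th held a CRE beginning 45 bases before its start, a motif present in 1.55% of 32851 promoter windows of the same length. The Lypd1 window, 1 of 3 listed for that gene, held a RUNX match (14% of windows) and a CRE half-site (17.8%). Neither Ttn nor Trim54 held any of the 5 motifs, and neither did the windows of Pou4f1, Runx1 and Gata3 or the other Lypd1 windows. No window was available for Calb1, Calb2 and Cpne6, which were not searched. GATA matches occurred in 9.99% and TATA boxes in 12.4% of all windows.

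At P22, 4 of the 10 markers differed between the genotypes beyond the thresholds used here: Cpne6 was higher in homozygotes, and Calb2, Ttn and Trim54 were lower. A gene was called when its Benjamini-Hochberg adjusted p in edgeR's quasi-likelihood test was below 0.05, its log2 fold change exceeded 0.5 in size, and that change had a standard error below 0.5. Of all 15443 genes tested 3.15% were called, 1.74% higher and 1.41% lower. The members' median log2 fold change was -0.08, against 0.01 over all genes tested.

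**Figure D1:**
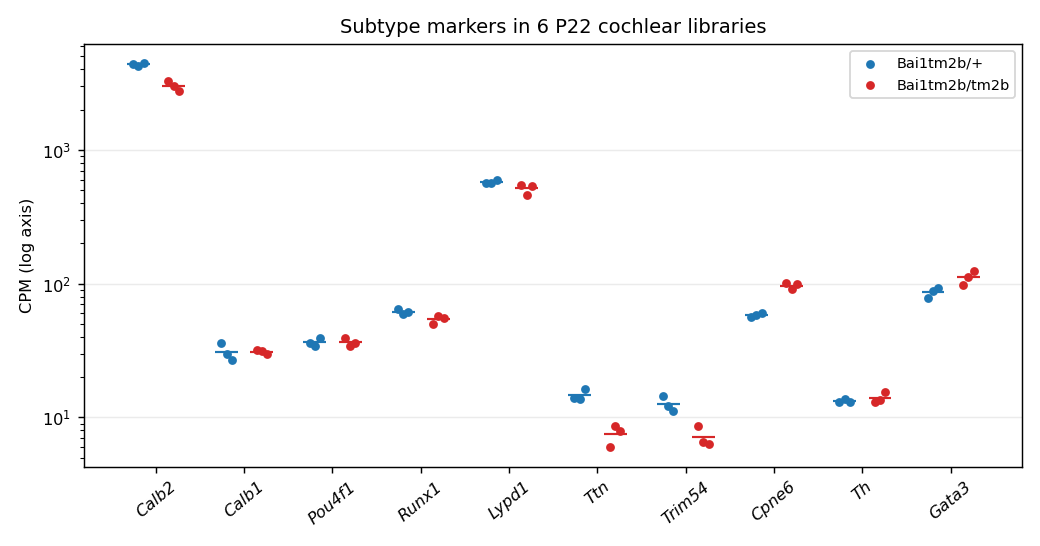
CPM of each subtype marker in the 6 P22 libraries on a log axis, with 1 point per library (4 mice pooled), Bai1tm2b/+ in blue, Bai1tm2b/tm2b in red and a bar at the mean of 3 libraries. Calb2, Ttn and Trim54 sit lower and Cpne6 higher in every homozygous library, while the points of Calb1, Pou4f1 and Th overlap.

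Calb2, the type Ia marker, encodes a calcium-buffering protein. It measured 4404, 4255 and 4455 CPM in controls and 3265, 2991 and 2776 CPM in homozygotes. The groups did not overlap, and a gap of 990.0 CPM separated them. The log2 fold change was -0.54 (SE 0.0746, adjusted p = 0.00292, edgeR). Calb2 made up 0.421% to 0.432% of all counts in controls and 0.284% to 0.330% in homozygotes. Without homozygous replicate 3 the change was -0.48 and no longer past the size threshold.

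Calb1, the type Ib marker and another calcium buffer, measured 35.9, 29.8 and 26.9 CPM in controls and 32.0, 31.4 and 29.8 CPM in homozygotes. The homozygous values lay inside the control range. The log2 fold change was 0.01, with a 95% interval of -0.19 to 0.20. As a result the ratio of Calb2 to Calb1 within each library was 123, 143 and 166 in controls and 102, 95.3 and 93.2 in homozygotes, without overlap.

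The 3 type Ic markers differed less. Pou4f1, a POU-domain transcription factor, measured 35.7, 34.0 and 39.5 CPM in controls and 39.2, 34.3 and 35.8 CPM in homozygotes. These groups overlapped, with a log2 fold change of 0.00 and a 95% interval of -0.16 to 0.16. Runx1, a Runt-domain transcription factor, measured 64.9, 59.3 and 61.2 CPM in controls and 50.2, 57.4 and 55.6 CPM in homozygotes. Lypd1, a membrane-anchored protein of the Ly6 family that binds nicotinic receptors, measured 567, 567 and 592 CPM in controls and 548, 464 and 540 CPM in homozygotes. For both genes all homozygous libraries lay below all controls, but the changes of -0.18 (SE 0.0695, adjusted p = 0.108, edgeR) for Runx1 and -0.15 (SE 0.0698, adjusted p = 0.176) for Lypd1 did not pass the test. Non-overlapping groups were found for 7 of the 10 markers and for 33.7% of all genes tested.

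Ttn, Trim54 and Cpne6 are listed as type I markers with no subtype given here. Ttn encodes titin, the giant spring protein of the muscle sarcomere, and Trim54 encodes MuRF3, a RING-finger protein that associates with microtubules and the sarcomere. Ttn measured 13.9, 13.8 and 16.2 CPM in controls and 5.96, 8.65 and 7.85 CPM in homozygotes. Trim54 measured 14.5, 12.1 and 11.2 CPM in controls and 8.59, 6.54 and 6.30 CPM in homozygotes. Neither gene's groups overlapped. The log2 fold changes were -0.97 for Ttn (SE 0.142, adjusted p = 0.00375, edgeR) and -0.82 for Trim54 (SE 0.148, adjusted p = 0.00768), and both calls held without any 1 of the 6 libraries. Of 14 skeletal muscle markers, 9 were below 1 CPM in every P22 library, among them Acta1, Ckm, Myh1, Myh2 and Myh4. Myl1, Tcap, Neb, Atp2a1 and Pvalb reached 1 CPM in at least 1 P22 library. Of the muscle list, 8 genes were tested and 1 was called, Neb (nebulin), which was lower (-0.53, adjusted p = 0.00538, edgeR). The summed level of that list, 704 to 744 CPM in controls and 569 to 638 CPM in homozygotes, was mostly Pvalb, which neurons also express.

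Cpne6, a calcium-dependent membrane-binding copine of neurons, moved the other way. It measured 56.2, 58.7 and 60.0 CPM in controls and 100.3, 91.1 and 98.6 CPM in homozygotes. Every homozygous library exceeded every control, with a gap of 31.1 CPM, and the log2 fold change was 0.73 (SE 0.0617, adjusted p = 0.000392, edgeR), 1.66-fold. The call held without any 1 of the libraries. The study's discussion lists Cpne6 among genes lower in homozygotes at P22, the opposite of these counts. Within each library the ratio of Calb2 to Cpne6 was 78.3, 72.4 and 74.2 in controls against 32.5, 32.8 and 28.1 in homozygotes.

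Neither type II marker was called at P22. Th, tyrosine hydroxylase, the rate-limiting enzyme of catecholamine synthesis, measured 13.1, 13.8 and 13.1 CPM in controls and 13.1, 13.5 and 15.5 CPM in homozygotes. Its log2 fold change was 0.07, with a 95% interval of -0.12 to 0.26. Gata3, a zinc-finger transcription factor, measured 78.8, 88.2 and 93.4 CPM in controls and 97.7, 112.8 and 123.3 CPM in homozygotes. All homozygous libraries lay above all controls and the adjusted p was 0.0295 (edgeR), but the log2 fold change of 0.36 was under the size threshold.

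The other genes of each class gave the following. Of 3 further type I subtype genes, 2 were called lower in P22 homozygotes: Rxrg, a retinoid receptor (log2 fold change -0.59), and Pcdh20, a protocadherin (-0.59). Grm8, a metabotropic glutamate receptor, changed by -0.07 with overlapping groups. Of 5 further type II genes none was called by edgeR or DESeq2 and 3 had an unadjusted p below 0.05 (Prph -0.10, Calca -1.10, Plk5 0.28, Etv4 0.29 and Ngfr -0.20, with adjusted p of 0.0600 to 0.779). Of 7 other genes of catecholamine synthesis and transport 4 were tested and none was called or had an unadjusted p below 0.05 with edgeR or DESeq2, and Dbh, which makes noradrenaline, was at 0 in all 6 libraries.

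Markers of other cells moved with genotype at P22. The pan-neuronal sum was 14365 to 16381 CPM in controls and 10767 to 12138 CPM in homozygotes. Of these markers 2 of 15 were called lower (Nefh and Prox1), against 1.41% of all genes tested. In log2 fold change 14 of 15 were below 0 and 1 above, with a median of -0.30, where Calb2 was at -0.54. Several fell short of the size threshold only, among them Slc17a6 (-0.48, adjusted p = 0.00439, edgeR), Slc17a7 (-0.47, adjusted p = 0.00246) and Nefl (-0.45, adjusted p = 0.00460). Hair cell markers summed to 469 to 495 CPM in controls and 605 to 701 CPM in homozygotes. Of these, 3 of 12 were called higher (Otof, Ocm and Espn), against 1.74% of all genes tested, and all 12 were above 0 in log2 fold change. In bulk tissue, fewer cells of a type and less RNA per cell cannot be told apart. When libraries were scaled to the pan-neuronal markers instead, the median of all genes moved by 0.33 and Cpne6 (1.04), Ttn (-0.65) and Trim54 (-0.52) kept their calls. Under that scaling 2813 of 15443 genes were called, 2765 higher and 48 lower. Calb2 was then lower by 0.23 on the log2 scale (adjusted p = 0.0113, edgeR) and no longer past the size threshold. Gata3 was called higher (0.68), and Lypd1 and Runx1 changed sign. The part of hair cells in the Gata3 and Calb2 values, and of supporting cells in the Gata3 values, was not tested.

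**Figure D2:**
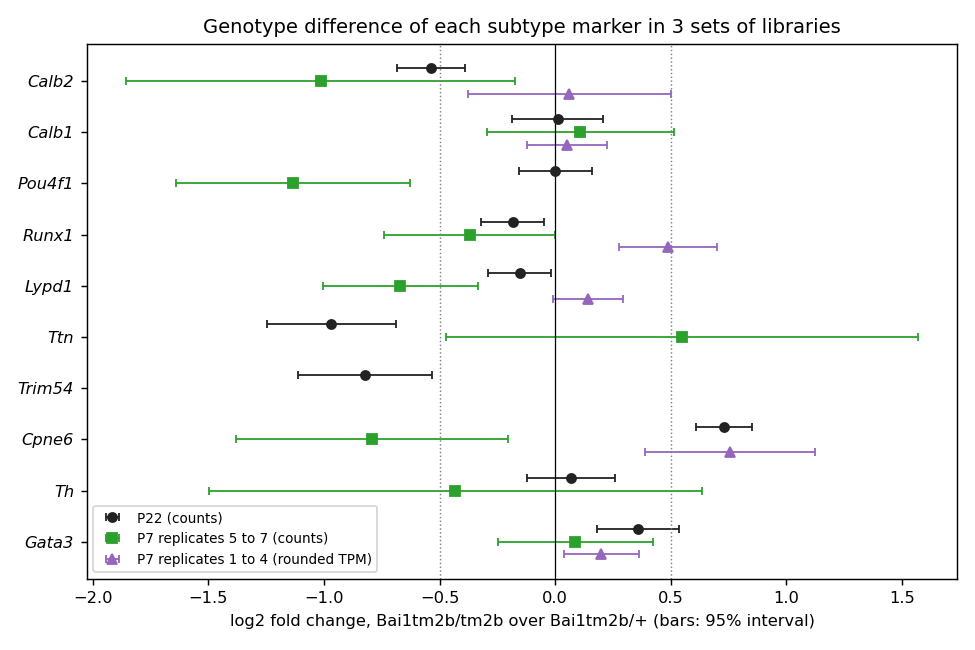
Log2 fold change of each marker, Bai1tm2b/tm2b over Bai1tm2b/+, in the 3 sets of libraries, with bars for the 95% interval and dotted lines at the size threshold of 0.5. Markers left out of a set were below its filter on low values. Cpne6 lies at 0.73 at P22, at -0.79 in the P7 counts and at 0.76 in the P7 rounded TPM.

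Levels can be compared between genes per kilobase of exon. In P22 controls Calb2 stood at 2508 CPM per kb and ranked 3 of 23309 genes, and in homozygotes at 1727 CPM per kb it ranked 5. The order in controls continued with Lypd1 at 81.7, Gata3 at 21.8 and Cpne6 at 13.7 CPM per kb, each separated from its neighbours. Trim54 (8.79), Pou4f1 (7.79), Calb1 (6.37) and Th (5.65) followed with ranges that overlapped from each to the next. Runx1 (5.14) lay below Th without overlap, and Ttn, spread over 116825 bases of exon, was last at 0.125 CPM per kb. In homozygotes Cpne6 was at 22.7 CPM per kb and Gata3 at 28.0 CPM per kb.

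In the P7 replicates 5 to 7, 9 of the 10 markers passed the filter and none was called between genotypes by edgeR, where 0 of 16026 genes were called in all. At an unadjusted p below 0.05 (edgeR) there were 4 of 9, all lower in homozygotes, against 4.76% of all genes tested. DESeq2 called 51 of the 16026 genes, 47 higher and 4 lower, and 1 of the 9 markers, Pou4f1, which was lower. Trim54 was too low to be tested.

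Calb2 measured 133, 373 and 293 CPM in P7 controls and 80.5, 119 and 196 CPM in homozygotes. The groups overlapped (log2 fold change -1.01, SE 0.429, adjusted p = 0.894, edgeR). Calb1 measured 191, 134 and 149 CPM against 125, 211 and 174 CPM, again with overlap (0.11, SE 0.206). The type Ic marker Pou4f1 measured 6.83, 12.1 and 7.07 CPM in controls and 4.68, 3.53 and 3.66 CPM in homozygotes. Its groups did not overlap, and its log2 fold change was -1.13 (SE 0.258, adjusted p = 0.894 with edgeR and 0.0192 with DESeq2). Lypd1 also did not overlap, with 47.6, 75.9 and 60.8 CPM in controls and 35.0, 37.3 and 43.5 CPM in homozygotes (-0.67, SE 0.171, adjusted p = 0.894, edgeR). Non-overlapping groups were thus seen for 2 of 9 markers and for 10.4% of all genes tested. Runx1 measured 14.0, 20.3 and 19.7 CPM against 17.0, 12.1 and 12.6 CPM, which overlapped.

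Cpne6 measured 21.5, 46.1 and 28.5 CPM in P7 controls and 22.7, 13.6 and 19.3 CPM in homozygotes (log2 fold change -0.79, SE 0.30, adjusted p = 0.894, edgeR). These groups overlapped through homozygous replicate 5 and control replicate 5. Ttn measured 2.10, 2.66 and 2.17 CPM in controls and 6.58, 1.73 and 1.83 CPM in homozygotes. Homozygous replicate 5 alone was high, and without it the log2 fold change turned from 0.55 to -0.38. Trim54 rested on 4 to 28 counts a library, at 0.408, 0.487 and 0.238 CPM in controls and 0.162, 0.128 and 0.111 CPM in homozygotes, and Th on 10 to 62 counts. Gata3 was abundant, at 396, 283 and 379 CPM against 303, 438 and 382 CPM, with overlap. Control replicate 6 held the highest value of 7 of the 10 markers and also the highest pan-neuronal sum, 3497 CPM against 1728 and 2084 CPM in the other controls and 1579 to 2253 CPM in homozygotes. Without it, the log2 fold changes were -0.81 for Pou4f1, -0.69 for Calb2, -0.49 for Lypd1 and -0.43 for Cpne6, all still below 0.

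**Figure D3:**
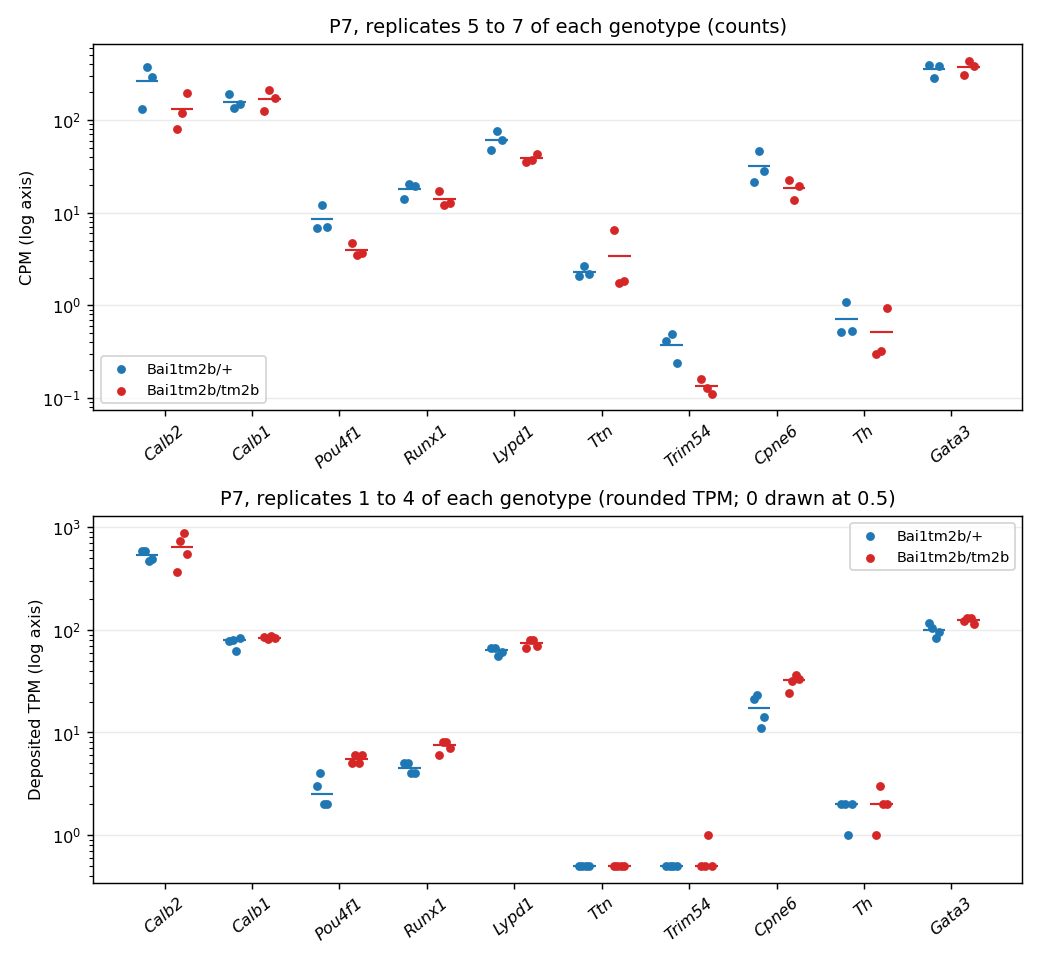
Each subtype marker in the P7 libraries on log axes: CPM of replicates 5 to 7 (top, bars at the mean) and deposited rounded TPM of replicates 1 to 4 (bottom, bars at the median, values of 0 drawn at 0.5). Pou4f1 and Lypd1 are lower in homozygotes in the upper panel and higher in the lower panel.

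In the P7 replicates 1 to 4, 6 of the markers reached a mean of 5 TPM and were tested with limma on log2(TPM + 1), a scale that understates the change of low genes. Cpne6 was called higher in homozygotes, 1 of 6 markers, against 0.809% of all 11740 genes tested (0.656% higher). It was deposited at 21, 23, 11 and 14 TPM in controls and 24, 32, 36 and 33 TPM in homozygotes, which did not overlap. Its log2 fold change was 0.76 (SE 0.188, adjusted p = 0.0464, limma). That call was lost in 6 of the 8 fits that each left out 1 library (log2 fold change 0.58 to 0.88, adjusted p 0.0174 to 0.125 over the 8), namely all but those without control replicate 1 and homozygous replicate 1, and with a lower minimum of 1 TPM (adjusted p = 0.0664).

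Runx1, the type Ic factor, was deposited at 5, 5, 4 and 4 TPM in controls and 6, 8, 8 and 7 TPM in homozygotes. It did not overlap and its adjusted p was 0.0439 (limma), but its log2 fold change of 0.49 was under the size threshold. It was past the threshold and called without control replicate 1 (0.51, adjusted p = 0.0405, limma) and without homozygous replicate 1 (0.55, adjusted p = 0.0154). Lypd1 was deposited at 66, 66, 55 and 61 TPM against 67, 80, 80 and 69 TPM. The Lypd1 groups were apart as deposited, overlapped after scaling by trimmed mean of M values (TMM), and did not pass the test (0.14, adjusted p = 0.222, limma). Pou4f1, below the minimum, was listed at 3, 4, 2 and 2 TPM in controls and 5, 6, 5 and 6 TPM in homozygotes, and with a minimum of 1 TPM its change was 0.74 (SE 0.149, adjusted p = 0.0616, limma). After scaling, groups did not overlap for 2 of the 6 markers tested and for 18.2% of all genes tested.

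Calb2 spread most among the homozygotes of this set, at 363, 740, 881 and 544 TPM, against 590, 592, 466 and 491 TPM in controls. Its log2 fold change was 0.06 with a 95% interval of -0.38 to 0.50. Calb1 was deposited at 78, 80, 62 and 83 TPM against 85, 82, 87 and 83 TPM (0.05, interval -0.12 to 0.22). Gata3 was deposited at 117, 104, 84 and 96 TPM in controls and 121, 130, 129 and 115 TPM in homozygotes, with overlap (0.20, adjusted p = 0.121, limma). Th was listed at 1 to 3 TPM in both genotypes. Ttn was listed at 0 in all 8 libraries and Trim54 in 7 of 8. In the counts of P7 replicates 5 to 7, Ttn stood at 0.0198 CPM per kb in controls.

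The pan-neuronal sum in this set, on the TMM-scaled TPM, was 1669 to 2701 in controls and 2086 to 2877 in homozygotes, and all 14 pan-neuronal markers tested had a log2 fold change above 0. Over genes, none of which is an independent replicate, the fold change rose with exon length in these 8 libraries (Spearman rho 0.50, against -0.20 at P22 and 0.08 in the P7 counts). The part of either in the Cpne6 and Runx1 values was not tested. Scaled to the pan-neuronal markers, Cpne6 was at 0.43 (adjusted p = 0.0528, limma), and Calb1, Calb2, Gata3 and Lypd1 changed sign.

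Between P7 and P22 all 10 markers were called in both genotypes, 8 higher and 2 lower at P22, when the 12 libraries in counts were scaled together. Age and deposited table coincide in these libraries, and P22 was a batch of its own per the labels, so these cannot be told apart. Changes were common over the genome: 51.8% of 16314 genes were called in controls (24.8% higher, 27% lower) and 49.3% in homozygotes (24.2% higher, 25.1% lower).

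The type Ia marker Calb2 ranged from 70.3 to 342 CPM at P7 and from 3050 to 4931 CPM at P22. It was 19.9-fold higher at P22 in controls and 27.9-fold in homozygotes. Calb1, the type Ib marker, went the other way, from 109 to 191 CPM down to 29.7 to 39.7 CPM (log2 fold change -2.07 in controls and -2.16 in homozygotes). The type Ic markers all rose. Lypd1 went from 30.6 to 69.7 CPM up to 512 to 655 CPM, 11.3-fold in controls and 16.4-fold in homozygotes. Pou4f1 went from 3.21 to 11.1 CPM up to 37.7 to 43.7 CPM, 5.06-fold and 11.3-fold. Runx1 went from 11.0 to 18.6 CPM up to 55.5 to 71.8 CPM, 4.17-fold and 4.81-fold.

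Trim54 had the largest change of the 10 markers, from 0.101 to 0.447 CPM at P7 to 6.92 to 16.0 CPM at P22, 39.5-fold in controls and 64.4-fold in homozygotes. Ttn rose 7.66-fold in controls and 2.75-fold in homozygotes, and Cpne6 rose 2.20-fold and 6.41-fold. Of the type II markers Th went from 0.260 to 0.990 CPM up to 14.4 to 17.0 CPM (log2 fold change 4.46 in controls and 4.97 in homozygotes). Gata3 fell from 260 to 397 CPM to 87.2 to 135 CPM (log2 fold change -1.74 and -1.46). No range at P7 overlapped that at P22 within a genotype for any of the 10 markers, as for 78.3% of all genes tested in controls and 74% in homozygotes. Adjusted p lay between 2.27e-09 and 0.00433 over the 20 tests (edgeR).

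Per kilobase of exon the order of the markers also changed. In P7 controls Calb2 (153 CPM per kb) and Gata3 (88.7) led with overlapping ranges, Calb1 followed at 32.5, and Lypd1 (8.73) and Cpne6 (7.53) overlapped. Pou4f1 (1.85) overlapped Runx1 (1.49), Th (0.299) overlapped Trim54 (0.263), and Ttn was last. By P22 Lypd1 had passed Calb1 and Gata3. Pan-neuronal markers rose as well, 14 of 15 called higher in controls and 13 of 15 in homozygotes, while of 12 hair cell markers 8 were called lower and 0 higher in controls, and 7 lower and 3 higher (Slc17a8, Cib2 and Espn) in homozygotes. Scaling to the pan-neuronal markers moved the median of all genes to -2.34 in controls and -2.05 in homozygotes. Under that scaling 13519 of 16314 genes were called in controls and 13461 in homozygotes. Relative to those marker transcripts, Calb2, Lypd1, Th and Trim54 stayed higher at P22 in both genotypes and Calb1 and Gata3 lower. Pou4f1 stayed called in homozygotes only (1.47, against 0.16 in controls), with no member called for a difference between the genotypes, and Runx1 was not called in either. Cpne6 turned to -1.02 in controls but stayed at 0.64 in homozygotes, and Ttn was not called in either (0.70 and -0.69).

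Whether the genotype difference itself changed between the ages was tested as an interaction in the same 12 libraries. None of the 10 markers was called by edgeR, which called 0.0306% of 16314 genes. At an unadjusted p below 0.05 (edgeR) there were 4 of 10, against 10.2% of all genes tested. DESeq2 called 123 of the 16314 genes, 2 of them markers, Cpne6 (1.51, adjusted p = 0.00111) and Pou4f1 (1.12, adjusted p = 0.0100). Cpne6 had an interaction of 1.54 (SE 0.321, adjusted p = 0.140, edgeR), its genotype difference being below 0 in the P7 replicates 5 to 7 and above 0 at P22. The P7 replicates 1 to 4, in which Cpne6 was higher in homozygotes as at P22, could not enter this test. It passed when P7 control replicate 5 was left out (1.77, adjusted p = 0.0464). Pou4f1 had an interaction of 1.16 (SE 0.266, adjusted p = 0.191) and Lypd1 one of 0.53 (SE 0.210, adjusted p = 0.401). For Ttn the value was -1.48 (SE 0.539, adjusted p = 0.366), and it includes the high P7 homozygous replicate 5. Calb2 gave 0.49 with a 95% interval of -0.46 to 1.44, wide enough to hold differences of either sign.

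The positions of the markers bear on how their reads could be assigned. On GRCm38, Lypd1 (chr1:125867622-125913101, minus strand) shares 17.1% of its exon bases with Gpr39 on the opposite strand, and Trim54 (chr5:31116712-31137630, plus strand) shares 26.6% with Gm15469. The use of strand in the counting is not given in the sources used here, so reads over the shared bases cannot be told apart. Calb1 (chr4:15881264-15908064), Calb2 (chr8:110137502-110168210), Pou4f1 (chr14:104461676-104467999), Cpne6 (chr14:55510445-55517431) and Th (chr7:142892752-142931128) overlap no other annotated exon. For Runx1, Ttn and Gata3 the part shared with any 1 gene was at most 3.9%.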

How the data were processed

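RNA from pooled cochlear dissections was enriched for poly A and sequenced on an Illumina NovaSeq. Per the submitters' processing notes, STAR, Salmon and DESeq2 were used with mm10; versions, annotation release and strand setting are not given in the sources used here. The authors deposited estimated counts from Salmon, not normalized, for P22 and for P7 replicates 5 to 7. For P7 replicates 1 to 4 the authors deposited a score, TPM rounded to whole numbers, which keeps no depth. The labels give batches of 3 and 4 P7 replicates per genotype without naming them, and do not say whether pools came from separate litters, so p-values measure only the spread between these libraries. The study reports that its P7 batches were run separately and that its first principal component captured dissection batch and run. Their sizes, 4 and 3 samples per genotype, are those of the P7 sets described here, but the libraries of each batch are not named.

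Estimated counts were rounded, filtered with filterByExpr, scaled by TMM and tested with edgeR 4.0.16 in R 4.3.3. The joint fit held 12 libraries in 4 groups. Rounded TPM with a mean of at least 5 were scaled by TMM, transformed as log2(TPM + 1) and tested with limma 3.58.1 with a trend. P-values were adjusted over all genes tested. Each result was recomputed under the alternatives that its unit allows, DESeq2 1.42.0 among them for counts but not for rounded TPM, and fits were tested on simulated data. Intervals (95%) use a normal approximation to the SE. Exon lengths and loci came from a GENCODE annotation of GRCm38, and promoter windows from RefSeq on GRCm38.p6. The members and lists were chosen with earlier results of these data known. The study names Calb2, Ttn, Trim54 and Cpne6 among genes that changed at P22, so their changes are not independent evidence. For Cpne6 the direction that its discussion gives, lower in homozygotes, is the reverse of the one found here. All 10 members, the further type I and II genes except 1 of type I, which is not reported here, and, for other lists, counts with up to 4 called genes are named.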

Additional observations from a re-analysis of the deposited data

Results flagged for a closer look

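Pou4f1 had opposite genotype differences in the 2 sets of P7 libraries. On the mean log2(value + 1) scale it was at -0.93 in the P7 counts and 0.74 in the P7 rounded TPM, 1.67 apart, with the groups not overlapping in either set, and the difference was not tested because the sets were normalized separately. These sets have the sizes of the study's separately run P7 batches, and the part of batch was not tested. Runx1 was lower in every P22 homozygote (-0.18) and higher in every homozygote of the P7 rounded TPM (0.49), 0.67 apart, and this difference was not tested. Trim54 was listed at 1 TPM in 1 of 4 P7 homozygous libraries and at 0 in the other 3, so that the gap took up the whole range, a ratio of 1. Chance flags about 1 in 20 groups, and a rounded value of 1 beside zeros is the smallest step the table can hold.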

How the results depend on the processing

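At P22 the 487 genes called (269 higher, 218 lower) became 2813 (2765 and 48) with scaling to pan-neuronal markers and 270 to 588 when each library was left out, with 270, 285 and 282 without control replicates 1 and 3 and homozygous replicate 2. In the P7 counts, 0 became 51 with the DESeq2 test (47 higher, 4 lower), 17 with neuron scaling and 0 to 0 without each library. In the P7 rounded TPM, 95 (77 and 18) became 0 with a minimum of 1 TPM, 0 with no filter, 293 with no TMM scaling (284 and 9), 1924 with neuron scaling (7 and 1917) and 0 to 332 without each library. From P7 to P22, 8445 became 13519 in controls (8036 to 8574 without each library) and 8050 became 13461 in homozygotes (7649 to 8062), with neuron scaling. The interaction gave 5, and 123 with DESeq2, 8 with no filter, 1 with neuron scaling and 0 to 101 without each library (101 without P7 homozygous replicate 5). The cause of these shifts was not tested.

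With neuron scaling the following changed sign: Lypd1 (0.16) and Runx1 (0.13) at P22, Calb1 (-0.28), Calb2 (-0.28), Gata3 (-0.14) and Lypd1 (-0.19) in the P7 rounded TPM, Cpne6 (-1.02) and Runx1 (-0.17) from P7 to P22 in controls, Ttn (-0.69) in homozygotes, and the Calb1 interaction (0.28). Pou4f1 at P22, at 0.00, read -0.0012 with DESeq2 size factors, -0.0013 with the DESeq2 test and -0.0021 with no filter. Leaving out single libraries turned the sign of uncalled values, at P22 for Calb1 (-0.082 to 0.13), Pou4f1 (-0.053 to 0.063) and Th (-0.010 to 0.12), in the P7 counts for Calb1 (-0.075 to 0.29), Gata3 (-0.050 to 0.22), Th (-1.21 to 0.022) and Ttn (-0.38 to 0.85), in the P7 rounded TPM for Calb1 (-0.033 to 0.12) and Calb2 (-0.13 to 0.29), and for the Calb1 interaction (-0.28 to 0.10). In the P7 rounded TPM, Runx1 was also called with a pseudocount of 0.5 (0.53), with no TMM scaling (0.58) and in 2 of the 8 fits that each left out 1 library.

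Same-numbered libraries of the 2 genotypes did not deviate together: correlations lay between -0.23 and 0.08, and 1 of 3 numbers at P22 matched its own number best. With the replicate number as a block, 466 genes were called at P22, 0 in the P7 counts and 0 in the P7 rounded TPM, where Cpne6 had an adjusted p of 0.117 (limma); no other member's call changed. Depth limits Trim54 and Th at P7.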

Other observations

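Over the 12 libraries in counts, with the mean of each age removed, Calb2 and Lypd1 varied together (Pearson r 0.92), though they are listed for different type I subtypes. The type Ic markers Pou4f1 and Lypd1 had r of 0.87. Calb1 had r of -0.10 with Calb2 and 0.51 with Gata3, and Gata3 had r of -0.70 with Ttn and -0.72 with Trim54. These points share libraries, dissection and genotype groups, and the values are descriptions. The genes most like Calb2 among 11654 with a mean of at least 5 CPM were Spock3 (0.99), Degs1 (0.99) and Def8 (0.99), and 6.62% of genes had r over 0.8 with it. For Lypd1 they were Pcbp3 (0.98), Kcnab2 (0.98) and Vstm2l (0.96), for Pou4f1 Tmem25 (0.91), Nos1 (0.91) and Man1c1 (0.91), and for Runx1 Col4a2 (0.92), Lamb1 (0.92) and Lama4 (0.91). Gata3 was most like Tmprss3 (0.96), B4galnt3 (0.96) and Cln6 (0.96), and Calb1 most like Lzic (0.92), Sfrp1 (0.90) and Hat1 (0.89). Cpne6 was most like Csrp1 (0.94), Tcp11l2 (0.93) and Mxra8 (0.93), Trim54 most like Rhof (0.94), Capn1 (0.94) and Slc9a3r2 (0.93), Ttn most like Mtx3 (0.95), Mbnl1 (0.93) and Hps3 (0.93), and Th most like Hint1 (0.94), Pwp1 (0.93) and Kcnmb4 (0.93).

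In other lists the following genes were called at P22, where 3.15% of all genes tested were called, and no list was tested as a whole. Of 10 supporting cell markers Fgfr3 was called higher and Prox1, which neurons also express, lower. In log2 fold change 9 of these 10 were above 0 and 1 below, with a list median of 0.24. Of 9 glial markers Mbp and Fabp7 were called higher. Of 10 blood and macrophage markers Lyz2 was called higher, with a list median log2 fold change of 0.54.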
